A study of Homo sapiens with 20 samples.

Results

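The contractile actin cytoskeleton genes described here are ACTA2, TAGLN, CNN1, CNN2, MYL9, TPM1, TPM2, CALD1, ACTN1 and FLNA. They were chosen by name, as the coding gene records that carry one of these 10 symbols, out of 20237 coding records and 38369 records in all. A record is a gene locus of the catalogue that the authors built. Each of the 10 symbols had 1 record, and none of these records was merged with a neighbouring gene. The RNA came from neural stem cells made from the established H1 line of human embryonic stem cells, which were driven towards neurons by withdrawing FGF and adding BDNF. FGF keeps neural progenitors dividing, and BDNF is a neurotrophic factor. The base medium and its supplements were changed at the same time, so these changes cannot be told apart. The labels give 20 samples on 7 days of differentiation, with 3 samples each at days 0, 1, 2, 4, 11 and 18. Day 5 has 2 samples, since 1 was dropped by the submitters as an outlier. All samples are of the same line and protocol, with no untreated series beside it. Cells for days 5, 11 and 18 had been replated at day 4 from Matrigel onto poly-D-lysine and laminin, so the day and the culture surface cannot be told apart from day 5 onwards.

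Actin filaments give a cell its shape and let it pull on its surroundings. Non-muscle and smooth muscle cells share a contractile apparatus in which myosin slides along actin, regulatory light chains switch the myosin on, tropomyosins, calponins and caldesmon coat the filament and set how myosin reaches it, and alpha-actinins and filamins cross-link filaments into bundles and networks. Many of these genes are expressed in adherent cells with stress fibres and at high level in smooth muscle. In such cells serum response factor (SRF), with its actin-sensing partners MKL1 and MKL2, is known to drive a large share of them through a motif called the CArG box. Neurons also use actin and non-muscle myosin, for example in growth cones and dendritic spines.

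To show the sequence on which SRF is known to act, promoters of the 10 genes were read from RefSeq (GRCh38.p14), each covering 250 bases before to 50 bases after a transcription start. The table held 16 such windows for 8 of the genes, and none for TAGLN or MYL9. The CArG box was searched as 2 C, 6 bases that are each A or T, and 2 G, a form that reads alike on both strands. It occurred in 452 of 34796 promoters (1.30%), belonging to 438 of 27305 genes (1.60%), and in those of CNN2, ACTN1 and FLNA. A looser form with exactly 1 G or C among the 6 inner bases, added after the strict search had been seen, occurred in 6.93% of promoters and in those of ACTA2 and CALD1. The CALD1 match lies at a listed start outside the deposited record and outside GENCODE transcripts, and is not shown. The stretches around the other matches are given below 5′ to 3′ on the strand of the gene, with the CArG boxes in capitals. They were placed on GRCh37, the assembly that corresponds to hg19, by an exact and unique match of the whole window.
CNN2, strict form: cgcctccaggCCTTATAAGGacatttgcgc
FLNA, strict form: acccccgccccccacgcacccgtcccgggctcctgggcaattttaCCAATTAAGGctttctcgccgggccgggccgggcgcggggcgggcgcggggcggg
ACTN1, strict form: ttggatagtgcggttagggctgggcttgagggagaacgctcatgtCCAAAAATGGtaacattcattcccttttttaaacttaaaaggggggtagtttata
ACTA2, looser form: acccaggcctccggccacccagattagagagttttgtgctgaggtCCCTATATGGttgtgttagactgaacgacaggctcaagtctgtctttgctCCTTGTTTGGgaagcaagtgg

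The CNN2 stretch lies at chr19:1026508-1026537 on the plus strand, within the first exon block of the deposited record and outside GENCODE exons. The FLNA stretch, at chrX:153603042-153603141 on the minus strand, lies upstream of every exon of the record. The ACTN1 stretch, at chr14:69444400-69444499 on the minus strand, belongs to 1 of 4 listed starts and is intronic to longer ACTN1 transcripts. The ACTA2 stretch, at chr10:90712581-90712696 on the minus strand, belongs to 1 of 2 listed starts and is likewise intronic to longer ACTA2 transcripts. Its 2 boxes cover positions -121 to -112 and -71 to -62, counted from the first transcribed base at 0. The MCAT motif (CATTCC on either strand), which TEAD factors are known to bind, does not overlap these boxes and occurred in 14.0% of promoters, and in those of ACTA2, CALD1 and ACTN1. A match is a description of the letters in a window and not a measured binding site.

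Expression was measured as FPKM, the number of sequenced fragments scaled to the transcript's length and to the total of mapped fragments, so levels can be compared between genes per length. The files hold 1 FPKM value per record and day, an estimate over all samples of that day. No spread between samples, test or detection limit was therefore computed from these values, the authors' own comparisons of adjacent days were not used, and the depth behind each value is unknown. FPKM values summed over all records to 413978 at day 0 and to 251156 at day 18, and the median record with a mean of at least 1 FPKM was 0.679 times as high at day 18 as at day 0, a shift of -0.56 on the log2 scale. Changes are therefore given as differences in log2(FPKM + 0.1) taken against the median of the 14443 records whose mean reached 1 FPKM, and a gene is said to have risen or fallen where that difference reached 2-fold. Changes quoted below are on this log2 scale, against the median record, unless they are said to be as deposited. The added 0.1 understates the change of low genes. Counts are read against the share of the 11793 coding records with a mean of at least 1 FPKM that passed the same fold, given beside the first count of each comparison. All 10 genes passed this filter on low values.

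The 10 genes together were high in the neural stem cells and low in the differentiated culture. Their FPKM values summed to 1620 at day 0, to 805 at day 5 and to 226 at day 18, which was 0.391%, 0.230% and 0.0899% of the FPKM of all records. From day 0 to day 18, 9 of the 10 genes fell by at least 2-fold relative to the median record, where 12.8% of coding records did, and ACTA2 did not pass that fold. The median change of the 10 was -2.29 on the log2 scale, beside -0.04 for the coding records, and as deposited, without the shift of the median record taken out, it was -2.85. The same 9 genes passed 2-fold as deposited, where 29.9% of coding records did.

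**Figure D1:**
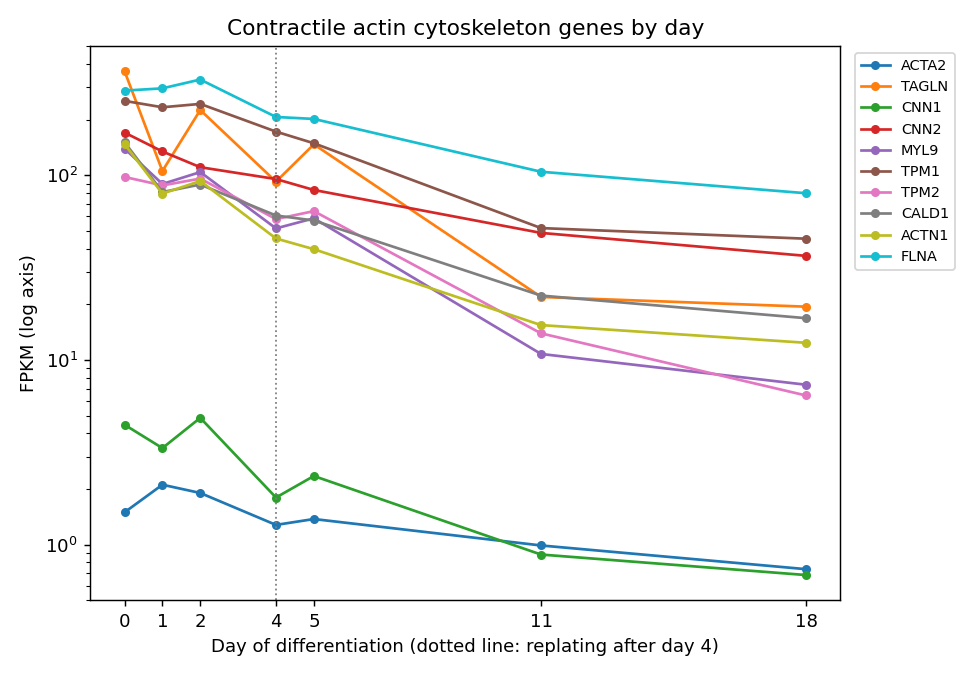
FPKM (log axis) of the 10 genes against the day of differentiation (1 value per gene and day, with no error bars because the values are estimates over all samples of a day). Of the 10 genes, 8 start between 98.0 and 367 FPKM and end between 6.42 and 80.0, while CNN1 and ACTA2 stay under 5 FPKM on every day.

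Order of abundance, per length, changed over the course. At day 0 TAGLN was the most abundant of the 10 transcripts, followed by FLNA, TPM1, CNN2, CALD1, ACTN1, MYL9, TPM2, CNN1 and ACTA2. At day 18 FLNA led, followed by TPM1, CNN2, TAGLN, CALD1, ACTN1, MYL9, TPM2, ACTA2 and CNN1. With 1 value per day it cannot be said which neighbours in these orders, such as CALD1 at 151 and ACTN1 at 147 FPKM on day 0, differ beyond the spread of the cultures.

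MYL9 (chr20:35169897-35178226, hg19, plus strand) encodes a regulatory light chain whose phosphorylation switches on smooth muscle and non-muscle myosin. Its FPKM on the 7 days, in order from day 0 to day 18, was 140, 89.8, 104, 51.6, 58.5, 10.8 and 7.34. The day 0 level was 19.0 times that of day 18, and against the median record MYL9 fell by 3.67 (log2). Most of that drop lay between day 5 and day 11, which held 61.8% of it.

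TAGLN at chr11:117070040-117075507 on the plus strand encodes transgelin, or SM22, a small actin-binding protein of the calponin type that is widely used as an early smooth muscle marker. It ended as far below its start as MYL9 but took an uneven course. Its FPKM was 367, 106, 226, 92.4, 147, 21.9 and 19.4 on the 7 days. Levels were low on days 1 and 4 and high between them on day 2 and after them on day 5. It fell by 3.67 from day 0 to day 18, and only 0.551% of coding records lay at or below that change.

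CNN1 (chr19:11649579-11661138, plus strand), the calponin typical of differentiated smooth muscle, was a low transcript at 4.46, 3.33, 4.86, 1.80, 2.35, 0.883 and 0.684 FPKM. Its highest value was on day 2, and it fell by 1.98 from day 0 to day 18. CNN2 (chr19:1026298-1039063, plus strand), a calponin of many non-muscle cells, was far more abundant and was lower on each day sampled than on the one before, at 171, 135, 111, 95.5, 83.3, 48.8 and 36.6 FPKM. It fell by 1.66, spread over all steps, with 37.1% of the change between day 5 and day 11. An unstranded count cannot tell a gene from a partner on the other strand, and 55.3% of the exon bases of CNN1 and 40.2% of those of CNN2 lie opposite antisense lincRNA records. The antisense record of CNN1 was listed at 0.0721 FPKM or less and that of CNN2 at 2.49 FPKM on day 0 and 0.395 on day 18.

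TPM1, at chr15:63334838-63364111 on the plus strand, and TPM2, at chr9:35681990-35690054 on the minus strand, encode coiled-coil proteins that run along the actin filament. TPM1 was at 253, 234, 244, 173, 149, 51.8 and 45.4 FPKM, nearly level over the first 3 days sampled. TPM2 was at 98.0, 88.2, 96.0, 58.0, 64.0, 13.9 and 6.42 FPKM, also nearly level until day 2. The later drop was larger in TPM2, which fell by 3.35, than in TPM1, which fell by 1.92. The TPM1 record joins 16 transcripts and the CALD1 record 12, so a change in the mix of muscle and non-muscle isoforms within a record is not seen in these values.

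CALD1 (chr7:134464171-134655470, plus strand) encodes caldesmon, which binds actin and tropomyosin and restrains myosin. It was at 151, 81.2, 89.2, 60.6, 56.9, 22.3 and 16.8 FPKM. It fell by 2.60 from day 0 to day 18, and 30.7% of that change lay in the first day. Antisense lincRNA records lie opposite 19.7% and 31.8% of its exon bases, and the higher of them was listed at 4.15 FPKM on day 0 and 0.662 on day 18.

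ACTN1, at chr14:69340841-69446083, and FLNA, at chrX:153576900-153603006, both on the minus strand, encode proteins that cross-link actin filaments. ACTN1, the alpha-actinin of stress fibres and focal adhesions, was at 147, 79.7, 93.1, 45.5, 39.8, 15.4 and 12.4 FPKM. Its drop was therefore already large by day 4, and it fell by 3.0 over the whole course. An antisense lincRNA record lies opposite 26.0% of the ACTN1 exon bases, listed at 0.408 FPKM on day 0 and 0.111 on day 18. FLNA, which links actin networks to membrane receptors, was at 288, 296, 330, 207, 202, 105 and 80.0 FPKM. It stood at 288 FPKM or more until day 2 and fell by 1.29 from day 0 to day 18, the smallest drop among the 9 genes that passed 2-fold.

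ACTA2 (chr10:90694832-90751147, minus strand), which encodes smooth muscle alpha-actin, was at 1.5, 2.11, 1.90, 1.28, 1.38, 0.989 and 0.736 FPKM. It was highest on day 1, and its change of -0.37 from day 0 to day 18 lay within the 25th to 75th percentile of coding records, -0.56 to 0.52. As deposited the change was -0.93. The coding sequences of the actins are nearly identical, and ACTA1, ACTB, ACTC1, ACTG1 and ACTG2 were all listed at 0 on every day, as were 1757 coding records in all. ACTB and ACTG1 are used by every cell, so these zeros are no measure of absence, and the level of ACTA2 is uncertain because these values do not show how reads shared with those genes were treated. A merged record of FAS and STAMBPL1 on the other strand also lies opposite 3.40% of the ACTA2 exon bases. That record was the more abundant, at 5.40 FPKM on day 0 and 2.35 on day 18. Set beside the promoter stretches above, the 3 genes with a strict CArG box changed by -3.0 (ACTN1), -1.66 (CNN2) and -1.29 (FLNA). The 5 genes with listed promoters but no strict box in the windows read changed by between -3.35 (TPM2) and -0.37 (ACTA2). The only TPM1 window, at chr15:63340438-63340737, lies within its record and not at the record's start, 63334838. TAGLN and MYL9 had no window, so genes with and without a box cannot be set apart here. A link between the box and these changes was not tested.

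**Figure D2:**
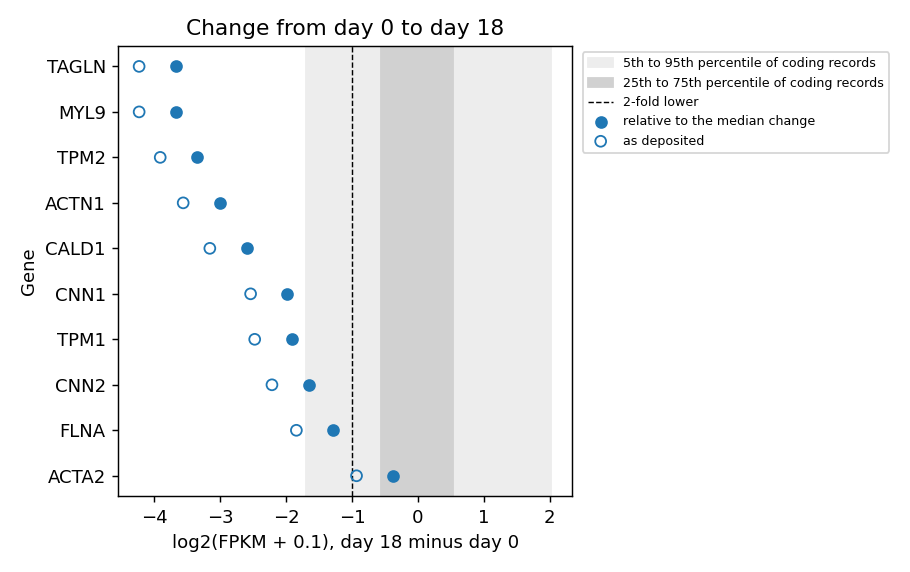
Difference in log2(FPKM + 0.1), day 18 minus day 0, for each of the 10 genes, relative to the median record (filled) and as deposited (open), over the 5th to 95th and 25th to 75th percentiles of the relative change of 11793 coding records (grey bands). The filled points run from -3.67 for TAGLN and MYL9 to -0.37 for ACTA2, which alone lies to the right of the dashed 2-fold line.

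The drop came in stages. From day 0 to day 1, when FGF was removed, BDNF added and the medium changed, only TAGLN fell by at least 2-fold, by 1.70, while 2.21% of coding records did. CALD1 and ACTN1 changed by -0.80 and -0.79 and MYL9 by -0.54, and ACTA2 and FLNA stood above 0 at 0.56 and 0.13. From day 1 to day 2, TAGLN rose by 1.05, beside 0.11% of coding records that rose by 2-fold, and no gene of the set fell that far (0.161% of coding records). The other 9 genes changed by -0.33 to 0.49 at this step.

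From day 2 to day 4 all 10 genes moved below the median record, and 4 fell by at least 2-fold, beside 0.67% of coding records. They were CNN1 (-1.39), TAGLN (-1.29), ACTN1 (-1.04) and MYL9 (-1.02), the last 2 of them just past the threshold. From day 4 to day 5, the step that spans the replating, no gene passed 2-fold in either direction, and 0.0424% of coding records fell that far. TAGLN, at 0.74, and CNN1, at 0.44, were above the 95th percentile of coding records, 0.41.

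By the median of the 10 genes, the largest step was from day 5 to day 11, which is longer than any step before it. All 10 genes again lay below the median record, with a median change of -1.20, and 7 fell by at least 2-fold, where 3.11% of coding records did. TAGLN (-2.59), MYL9 (-2.28) and TPM2 (-2.04) fell most. TPM1, ACTN1, CALD1 and CNN1 fell too, with changes of -1.37, -1.21, -1.19 and -1.17, and FLNA, CNN2 and ACTA2 changed by -0.80, -0.62 and -0.29. CNN1, at -1.39, and ACTA2, at -0.54, had changed more from day 2 to day 4. The steps differ in length, so their sizes are not rates. From day 11 to day 18 no gene passed 2-fold, beside 1.4% of coding records that fell, and the median change was -0.11. TPM2, at -0.83 relative to the median record, was at -1.11 as deposited and passed 2-fold on that scale, as did 3.72% of coding records. TAGLN and TPM1 were slightly above 0 relative to the median record, at 0.10 and 0.09, and below it as deposited, at -0.17 and -0.19.

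**Figure D3:**
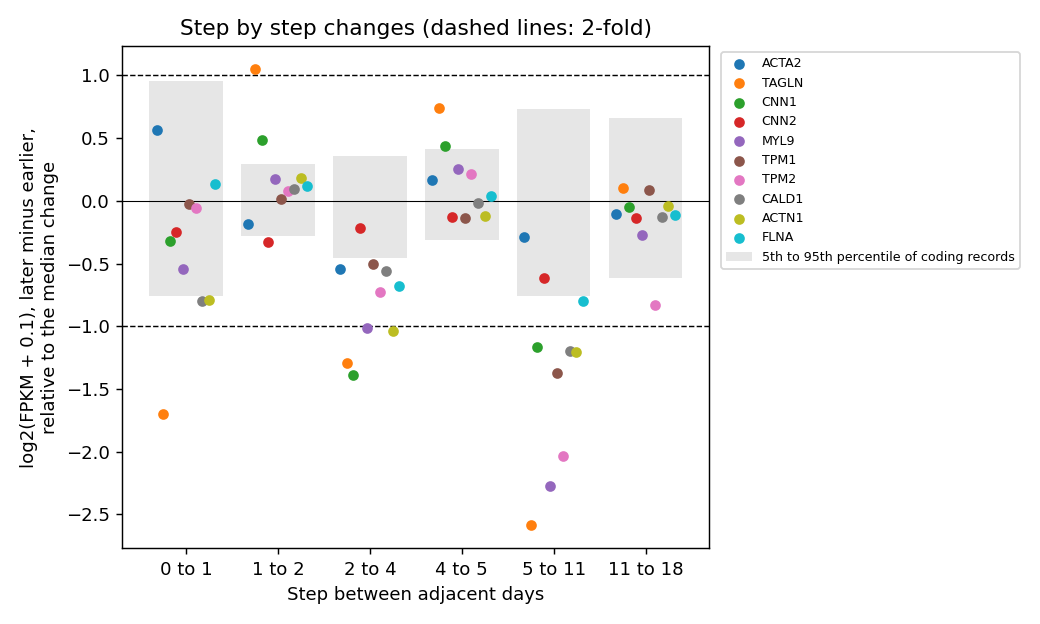
Difference in log2(FPKM + 0.1), later minus earlier day and relative to the median record, for each of the 10 genes (points, in the same order at every step) at the 6 steps between adjacent days. Grey bars span the 5th to 95th percentile of 11793 coding records, and the points lie below 0 for all 10 genes at the steps from day 2 to 4 and from day 5 to 11.

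The course of TAGLN over days 0, 1, 2, 4 and 5, down, up, down and up, was noticed in the values and then counted. CNN1, MYL9 and TPM2 shared these directions relative to the median record, so that 4 of the 10 genes had them, beside 945 of 11793 coding records (8.01%). With each of the 4 moves at least 1.5-fold, TAGLN was the only one of the 10, and 4 coding records in all (0.0339%) had the course. The others were EMILIN2, TFPI2 and the merged record of CCDC19 and TAGLN2, the relative of TAGLN, which changed by -2.01, 0.71, -0.66 and 0.97 over the 4 moves. With 1 value per day, a swing of the cultures sampled on one day cannot be told apart from a swing over time.

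Most of the genes have relatives of the same protein family, and 18 of these were followed as isoform relatives (caldesmon had none in the list). Of them, 11 had a mean of at least 1 FPKM, 8 fell from day 0 to day 18 by at least 2-fold, beside 12.8% of coding records, and 1 rose. Their median change was -1.32. As deposited, 10 of the 11 passed 2-fold lower, beside 29.9% of coding records, and 0 passed 2-fold higher, beside 7.57%. Shares within a family do not depend on how the days were scaled, so they are given for 5 families. The filamins are not among these, so the 5 do not show the direction in every family.

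In the transgelin family the leading gene changed. TAGLN held 83.5% of the summed FPKM of TAGLN, TAGLN2 and TAGLN3 on day 0, 58.1% on day 5, 11.7% on day 11 and 16.1% on day 18. TAGLN3, a transgelin known from neurons, was at 48.8, 46.3, 61.7, 80.2, 95.2, 160 and 96.4 FPKM, so it passed TAGLN between day 5 and day 11. It rose by 1.54 relative to the median record, beside 13.9% of coding records that rose by 2-fold, and was just under 2-fold as deposited, at 0.98. TAGLN2, whose record is merged with CCDC19, fell by 1.75.

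In the calponins, CNN1 and CNN2 together went from 40.8% of the family on day 0 to 25.1% on day 18. CNN3, the calponin best known from brain, went from 254 to 111 FPKM, a change of -0.63. The sum for the light chains joins the regulatory chains with MYL6, which is an essential chain, so shares of it are not shares within one class. MYL6 alone made up 70.7% of this sum on day 0 and 81.1% on day 18. MYL9 held 7.46% of it on day 0, 9.97% on day 2 and 1.41% on day 18. MYL6, the essential light chain of non-muscle myosin, was the main family transcript throughout at 1324 FPKM on day 0 and 423 on day 18, a change of -1.09. MYL12A and MYL12B, the other non-muscle regulatory light chains, changed by -2.56 and -1.04. These last 2 are close copies of each other, so the split of reads between them is uncertain.

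TPM1 and TPM2 together held 41.1% of tropomyosin FPKM on day 0, 52.4% on day 2 and 32.0% on day 18. TPM4 and TPM3, found in most non-muscle cells, changed by -2.0 and -1.32. ACTN1 held 62.0% of alpha-actinin FPKM on day 0 and 33.6% on day 18. ACTN4, the other non-muscle alpha-actinin, changed by -1.33 and was the higher of the pair from day 4, when it stood at 51.9 FPKM against 45.5 for ACTN1. ACTN2 and ACTN3, the sarcomeric forms, were listed at 0.174 FPKM or less on every day. FLNC, the filamin of striated muscle, went from 6.50 to 2.37 FPKM, a change of -0.86.

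**Figure D4:**
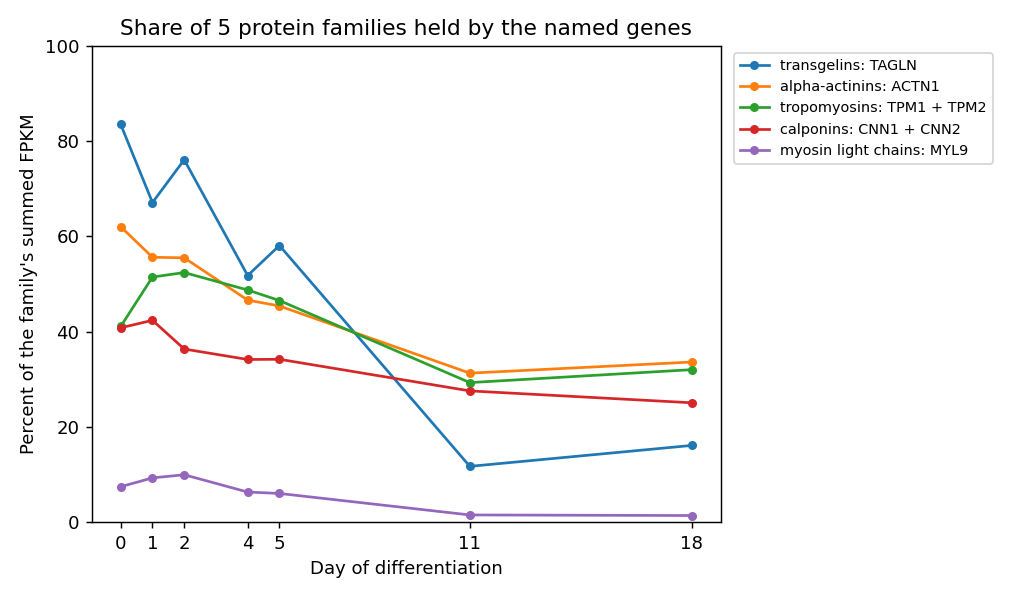
Percent of the summed FPKM of each protein family held by the named member or members against the day of differentiation, for 5 families with other expressed relatives (the filamins are not shown). The myosin light chain sum includes MYL6, an essential chain. The transgelin line drops from 83.5% to 16.1%, and the alpha-actinin line from 62.0% to 33.6%.

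The wider contractile and adhesion machinery was followed in 22 other genes, of which 18 had a mean of at least 1 FPKM. Of these, 15 fell from day 0 to day 18 by at least 2-fold, beside 12.8% of coding records, and 1 rose, beside 13.9%, with a median change of -1.68. MYH9, the heavy chain of non-muscle myosin IIA, went from 156 to 12.8 FPKM and CSRP1, a LIM protein of actin bundles, from 61.1 to 5.19, with changes of -3.03 and -2.97. FHL1, a four-and-a-half LIM protein, was the one that rose, by 1.22 from 16.0 to 25.5 FPKM, and it did not pass 2-fold as deposited. PDLIM5 came next at -0.05. Smooth muscle myosin MYH11 and LMOD1 had means under 1 FPKM, as did MYH14 and SYNPO2.

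Regulators of the apparatus were followed as a list of 12 genes. Of these, 11 had a mean of at least 1 FPKM, 2 fell and 1 rose, with a median change of -0.55. These counts are close to the coding background, where 12.8% fell and 13.9% rose. The 2 that fell were PPP1CB, a catalytic subunit of myosin phosphatase whose record is merged with SPDYA (-1.62), and RHOC, a small GTPase (-1.31). PPP1R12B, a targeting subunit of myosin phosphatase, rose by 1.29 from 1.83 to 3.10 FPKM, and by less than 2-fold as deposited. MKL1 stood at 0.55 relative to the median record and was level as deposited, at 10.1 FPKM on both day 0 and day 18. SRF, named here after its values were seen because of the promoter motif, went from 33.4 to 11.3 FPKM, a change of -0.99 that did not reach 2-fold. As deposited, 7 of the 11 regulators were at least 2-fold lower, beside 29.9% of coding records on that scale.

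The lists were also counted by step. Between day 5 and day 11, when 7 of the 10 genes fell, 0 of 11 isoform relatives, 6 of 18 other contractile and adhesion genes and 0 of 11 regulators fell by 2-fold, beside 3.11% of coding records. As deposited the counts at this step were 7 of 10, 2 of 11, 9 of 18 and 1 of 11, beside 4.24% of coding records. Between day 2 and day 4 the counts were 4 of 10, 2 of 11, 1 of 18 and 0 of 11 on both scales, beside 0.67% of coding records, or 0.653% as deposited. No test of these differences was made, as there are no replicate values.

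**Figure D5:**
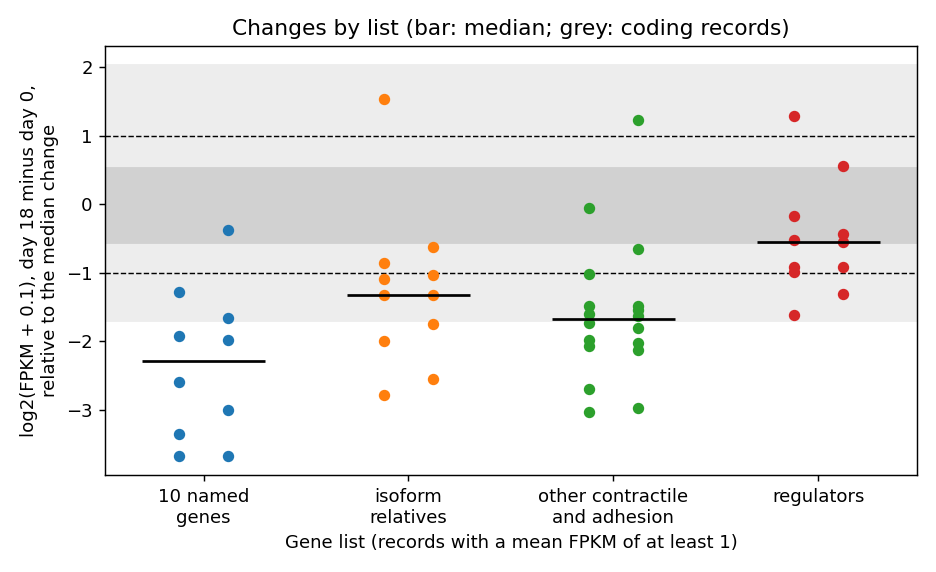
Difference in log2(FPKM + 0.1), day 18 minus day 0 and relative to the median record, for every record with a mean of at least 1 FPKM in each list (points) with the list median (bar), over the percentiles of coding records (grey, as in the plot of the change by gene). Medians are -2.29 for the 10 named genes, -1.32 for isoform relatives, -1.68 for other contractile and adhesion genes and -0.55 for regulators.

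The profile of the 10 genes was shared by many other transcripts. Pearson's r was computed over the 7 days on log2(FPKM + 0.1) as deposited, so the common decline of FPKM enters it. With the mean profile of the set, r was 0.90 for ACTA2 and between 0.97 and 1.00 for the other 9 genes. Each of the 10 genes is part of that mean. Among the 11793 coding records, the 10 genes included, the median r was 0.77, and 26.1% had r over 0.9. The highest outside the set was MYH9, at 0.9986, followed by SORBS2, an adaptor of actin-based adhesions, at 0.998 and by a record that merges GALNT4 with WDR51B at 0.997. FAM38B (an older symbol of the stretch-activated channel PIEZO2), ANXA11, KLF3, FRMD8, DTX2, FAM114A1 and TLN1, the link between integrins and actin, completed the 10 most alike. All of these values are from the same 7 points, which share libraries and scaling, and are a description only.

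Markers of other cell types were read beside these results, and fewer cells of a type and less RNA per cell cannot be told apart in such bulk samples. Of 9 smooth muscle and pericyte markers, 4 had a mean of at least 1 FPKM, and the list summed to 28 FPKM on day 0 and 5.37 on day 18. Among these 4 the largest drops were in RGS5 (-3.40) and KCNJ8 (-1.20), while the defining smooth muscle marker MYH11 did not exceed 0.112 FPKM and ACTG2 was listed at 0. DES, with a mean under 1 FPKM, went from 0.527 to 0.0279 FPKM, a change of -1.73. Mesenchyme and fibroblast markers, 6 of 10 with a mean of at least 1 FPKM, summed to 334 FPKM on day 0 and 55.8 on day 18, with COL1A1 listed at 0 and POSTN (-4.70) and COL1A2 (-2.55) changing most. Most of that sum was COL3A1, at 238 FPKM on day 0 and 30.5 on day 18. All 6 stood below 0 relative to the median record, but PDGFRA, whose record is merged with FIP1L1, only at -0.17. Endothelial markers summed to 26.1 FPKM on day 0 and 0.725 on day 18. Nearly all of that was KDR, at 23.8 and 0.700 FPKM on these days, and PECAM1 had no record. Striated muscle markers summed to at most 0.698. Neural progenitor markers summed to 889 FPKM on day 0 and 570 on day 18, with NES and SOX2 above 60 FPKM on every day. The drop of that sum lay mainly in NES, at 513 FPKM on day 0 and 180 on day 18, and 4 of the 6 markers stood above 0 relative to the median record, led by HES5 (3.86) and PAX6 (1.81). Neuron markers summed to 303 FPKM on day 0 and 1146 on day 18. Most of that rise lay in STMN2, at 32.3 FPKM on day 0 and 727 on day 18. Of the 6 neuron markers with a record, 5 stood above 0 relative to the median record, led by STMN2 (5.05) and DCX (4.54). NEFL went the other way, from 153 to 68.1 FPKM (-0.61), and RBFOX3 had no record. Neural crest markers summed to 31.8 FPKM on day 0, 81.7 on day 11 and 43.9 on day 18. Most of it was PAX3, at 31.0 FPKM on day 0 and 27.9 on day 18. TFAP2A and NGFR rose by 4.85 and 4.59, from 0.0415 to 2.67 and from 0.709 to 13.1 FPKM. SOX10 and FOXD3 did not exceed 0.165 and 0.0873 FPKM. Pluripotent markers summed to 9.82 FPKM on day 0 and 2.29 on day 18, nearly all of it DPPA4. In FPKM as deposited, the smooth muscle and pericyte, mesenchyme, endothelial, neural progenitor and pluripotent sums were all highest on day 0, as were 7 of the 10 genes. The FPKM of all records also went from 413978 on day 0 to 251156 on day 18, and these sums are not corrected for that. The part of these cell types in the levels of the contractile genes was not tested.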

How the data were processed

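The authors sequenced polyadenylated RNA in paired ends and mapped the reads to hg19 using TopHat2. Transcripts assembled by Cufflinks were joined with catalogues of lincRNAs and coding genes, and Cuffdiff2 was run on them with its defaults, whose library type is unstranded. Versions of these 3 programs are not given in the sources used here. The deposited FPKM matrix holds 1 value per record and day, which the authors made from all samples of the day, and 0 columns of single samples. A second deposited table holds the authors' own comparisons of adjacent days (status, fold changes, test statistics, p-values and q-values), which were not used, and exon coordinates, which were. Of several records with one symbol, that of the highest mean FPKM was kept.

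Changes were computed in Python 3.11.15 with pandas 2.3.3 as log2(FPKM + 0.1), relative to the median change of records with a mean of at least 1 FPKM, and checked on simulated data. The named genes are the 10 of the set, the 2 largest changes in each direction in each list, the relatives of a member's protein family (1 is not reported here), and the 10 records most alike. The genes and lists were chosen with earlier results of these data known. Alternatives were the pseudocount, the filter, the scaling, the fold, and the treatment of merged and multiple records.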

Additional observations from a re-analysis of the deposited data

How the results depend on the processing

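Of 345 values recomputed under 13 alternatives, 2 of them chosen after seeing the data, 329 stayed within 1.5-fold. Many of the values are counts, which have no direction. A reversal could be recorded only for a change of at least 2-fold, and 0 were. For day 18 against day 0, the 9 genes past 2-fold became 5 at 4-fold. The share of coding records past 4-fold was not counted, and their 5th percentile in this comparison was -1.70 on the log2 scale. Without a filter on low values the median change from day 0 to day 18 was taken over all records, and the 10 genes had the same values as without recentring. In that setting 1 gene of the set fell from day 11 to day 18 in place of 0, 8 regulators fell from day 0 to day 18 in place of 2, with a median of -1.29, and 0 regulators and 0 isoform relatives rose. As deposited, without recentring, 1 gene of the set fell from day 11 to day 18, 7 regulators fell, and 0 regulators, 0 isoform relatives and 0 other contractile and adhesion genes rose. With a mean of at least 5 FPKM, 0 regulators rose, and with merged records left out 1 regulator fell. With day 11 in place of day 18, 0 other contractile and adhesion genes rose and TPM2 was at -2.52. With a pseudocount of 1, CNN1 was at -1.22.

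No paired analysis was possible because the files hold 1 value per day, and a fit with a replicate block and fits leaving out a sample were not run for the same reason. Depth is unknown, and values near or under 1 FPKM, as in ACTA2 and CNN1, have no error.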
